A study of Mus musculus with 12 samples.

Results

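Within the myeloid knockout of p38γ and p38δ, livers whose mitochondria were labelled NZB were compared with livers whose mitochondria were labelled C57. The members are 4 of the 12 RNA pools of the series, chosen by their labels alone. Knockout pools 1 and 2 carry the mitochondria label C57, and knockout pools 3 and 4 carry the label NZB, which gives 2 pools a side and 11791 genes compared. It is the only place in the series where the label differs between pools of the same genotype and treatment.

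All 12 pools came from livers of male mice aged 10 weeks that had been fed for 3 weeks on a methionine- and choline-deficient (MCD) diet, which causes fat accumulation and inflammation in the mouse liver. Each pool mixed RNA from 2 animals, and every pool has the strain label C57BL/6. The knockout (genotype label Lyzs cre p38g/d) uses Lyzs-Cre, a recombinase made from the lysozyme 2 gene in myeloid cells such as macrophages and neutrophils. In these cells it targets 2 stress kinases, p38γ and p38δ, encoded by Mapk12 and Mapk13. The 4 control pools carry Lyzs cre and the mitochondria label C57. The 4 anti-Ly6G pools also carry Lyzs cre, come from mice given an antibody against the neutrophil surface protein Ly6G, and all have the label NZB. Cre is thus shared by all groups, and no group without Cre or on another diet was analysed here.

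Conplastic mice, which the growth protocol describes, are bred by repeated backcrossing until the nuclear genome of one strain is combined with the mitochondrial DNA (mtDNA) of another. Mouse mtDNA encodes 13 protein subunits of the respiratory chain and ATP synthase, together with 2 ribosomal RNAs and a set of transfer RNAs. All other mitochondrial proteins come from nuclear genes, so a conplastic strain pairs nuclear-encoded subunits with partners from another strain. The table holds levels per gene and no base calls, so the mtDNA sequence behind the label could not be checked. The labels record no difference between the sides other than the mitochondria. Anything else that set pools 1 and 2 apart from pools 3 and 4 cannot be told apart from the label.

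Levels are a normalised signal in RPM (reads scaled to an adjusted library size), and differences are on the log2(signal + 0.5) scale, NZB minus C57. The C57 pools held 19.6 and 18.8 M reads and the NZB pools 22.3 and 19.3 M. Across genes, the Pearson correlation of log2 levels was 0.991 between the C57 pools, 0.991 between the NZB pools and 0.982 to 0.985 across the label. The third principal component, with 9.43% of the variance, put the C57 pools at 10.8 and 13.3 and the NZB pools at -11.8 and -14.2, while the anti-Ly6G pools spread from -13 to 18.1.

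No gene passed an adjusted p of 0.05 in either direction (0.0% of genes) when the spread was estimated over all 12 pools with limma, where the lowest adjusted p was 0.0785. At an unadjusted p under 0.05, 602 genes (5.11%) were higher and 558 (4.73%) lower in the NZB pools, together 9.84%. The quasi-likelihood test of edgeR likewise called 0 genes (632 and 591 at an unadjusted p under 0.05), whereas DESeq2 called 68 higher (0.577%) and 62 lower (0.526%), together 1.1%. Fitted on the 4 knockout pools alone, limma called 248 genes higher (2.11%) and 371 lower (3.15%) of 11766, together 5.26%. The root of the mean variance of log2 levels within a group was 0.19 in the C57 pools and 0.178 in the NZB pools. It was 0.244 in control and 0.258 in anti-Ly6G pools. The median SDs (0.0821, 0.0742, 0.139 and 0.171 in the same order) cannot be set side by side, because a median SD from 2 pools runs lower than one from 4. Calls from the knockout pools alone take their spread from 2 pools a side and are given below as adjusted p within the knockout (limma, Benjamini-Hochberg), beside the adjusted p over 12 pools.

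Large differences were rare. The log2 difference reached 1 in 46 genes that were higher and 58 that were lower. The 95% interval, which reached a median of 0.34 to either side, lay within -1 and 1 for 92.1% of genes. Both NZB pools lay above both C57 pools in 3182 genes (27.0%) and below both in 3177 (26.9%), and these shares are the background for the counts of groups that do not overlap. With 2 pools against 2, an exact permutation test cannot give a two-sided p below 0.333.

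The scaling of the table matters here. The deposited signal summed to 1.00 and 0.993 M in the C57 pools and to 0.926 and 0.922 M in the NZB pools, where the 10 most abundant genes held 19.3 and 18.8% of reads against 20.4 and 21.4%. When the reads were instead scaled to the total of the table, the median log2 difference of all genes moved from 0.0086 to 0.11. The split at an unadjusted p under 0.05 then became 1253 higher and 246 lower, and that of pools without overlap 5501 and 1567, with still 0 adjusted calls. Medians of gene groups are therefore given with both scalings where they are close to that shift.

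**Figure D1:**
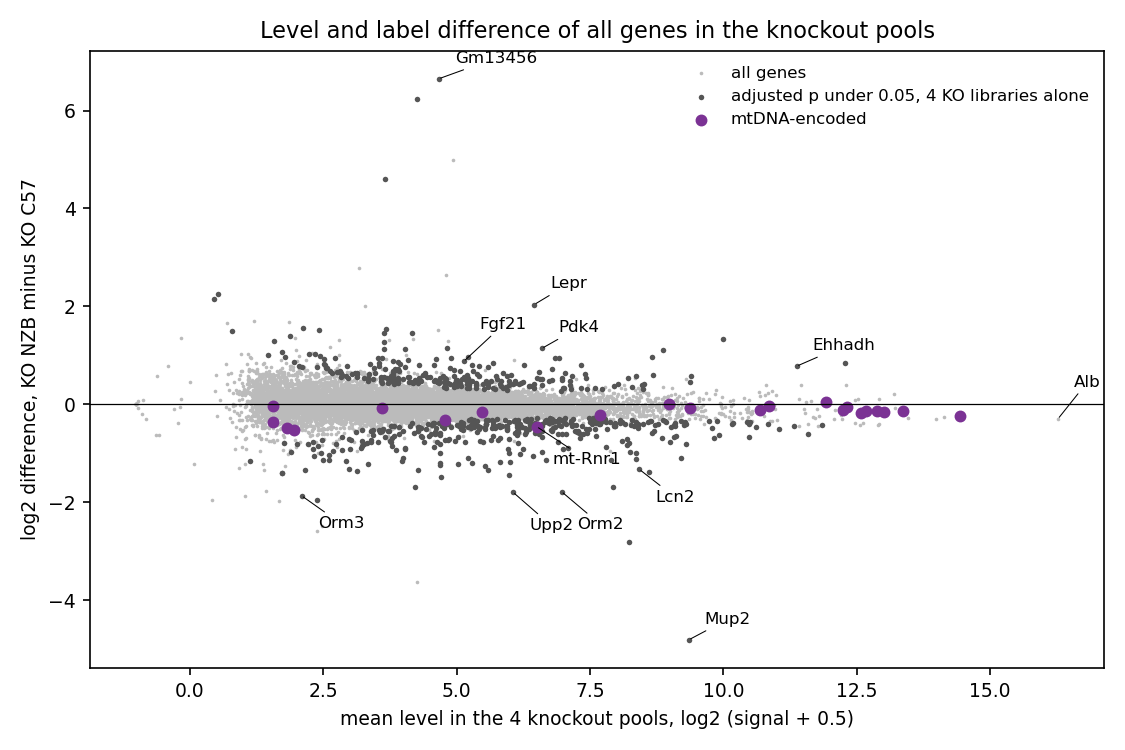
Each point is 1 of 11791 genes, plotted by its mean level in the 4 knockout pools (x axis, log2 of signal + 0.5) and its log2 difference between the NZB and C57 pools (y axis); dark points pass an adjusted p of 0.05 in the 4 knockout pools alone. The purple mtDNA-encoded genes lie between -0.53 and 0.04, while single nuclear genes reach from -4.81 for Mup2 to 2.04 for Lepr and 6.65 for the pseudogene Gm13456.

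The 5 genes listed at 0 in both C57 pools need to be read from their sequence, which is why a stretch of one of them is shown. Gm13456, a processed pseudogene on chromosome 2, is a copy of Eef1a1, the gene of translation elongation factor 1 alpha, and 70.5% of its 25-base words also occur in Eef1a1. In the 90 bases below, from GENCODE transcripts of the GRCm38 build (bases 983 to 1072 of Eef1a1-201 and 838 to 927 of Gm13456-201), the 4 positions that differ are in capitals.
Eef1a1: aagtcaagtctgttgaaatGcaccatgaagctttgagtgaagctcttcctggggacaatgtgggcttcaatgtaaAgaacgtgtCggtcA
Gm13456: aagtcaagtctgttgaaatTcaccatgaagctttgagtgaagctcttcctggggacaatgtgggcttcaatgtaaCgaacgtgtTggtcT

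Gm13456 was at 0 in both C57 pools and at 47.7 and 51.8 in the NZB pools, at least 319-fold higher than the level of 3 reads per library. Control pools were on both sides, at 0.252, 0.251, 53.6 and 34.8, and anti-Ly6G pools lay at 223 to 242. Eef1a1 itself was at 4374 and 4715 in the C57 pools and at 4146 and 4274 in the NZB pools. Gm13841 (0 and 0 against 36.5 and 37.9), Gm10171, a copy of Timm23 (0 and 0 against 2.04 and 1.44), and Gm11868 (0 and 0 against 2.04 and 1.72) showed the same division. Eno1b, a copy of the glycolytic gene Eno1, was at 0 in both C57 pools and at 118 and 1.63 in the NZB pools, so the 2 NZB pools did not match each other. Gm10171 and Gm13841 have no 25-base word of their own, and how reads shared by a gene and its copy were assigned is not given in the sources used here, so the levels of such copies are uncertain.

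Transcripts of the mtDNA itself were slightly lower in the NZB pools under the deposited scaling, but no protein-coding one had an unadjusted p under 0.05. They made up 8.48 and 8.46% of reads in the C57 pools and 8.10 and 8.32% in the NZB pools. Both NZB values lay below both C57 values (exact permutation p = 0.333, the smallest possible). Controls held 8.51 to 9.16% and anti-Ly6G pools 8.34 to 10.5%. Of the 22 mtDNA-encoded genes measured, 17 (77.3%, against 26.9% of all genes) were lower in both NZB pools than in either C57 pool. In the other direction 0 were higher, and the median log2 difference was -0.138 against 0.0086 over all genes. With reads scaled to the total of the table, the median was -0.0282, against 0.11 over all genes. Without overlap, 6 were then lower (27.3%, against 13.3% of all genes) and 2 were higher (9.09%, against 46.7%).

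Among the 7 mt-Nd genes, which encode subunits of complex I, the log2 differences ran from -0.13 to 0.04. mt-Nd1 was at 5136 and 5206 in the C57 pools and at 5050 and 4922 in the NZB pools. mt-Nd4 was at 6845 and 6840 against 6064 and 6448, and mt-Nd5 overlapped, at 4072 and 3631 against 3858 and 4060. None of these genes had a p under 0.05, and the log2 differences of mt-Nd5 (0.04) and mt-Nd4l (0.01) were above 0.

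mt-Cytb, the complex III subunit, was at 11113 and 11044 in the C57 pools and at 10140 and 10079 in the NZB pools. mt-Co1, the catalytic subunit of cytochrome c oxidase, was at 24327 and 23722 against 20223 and 20272, with a log2 difference of -0.25 (SE 0.23, limma adjusted p = 0.763). mt-Co2 (7900 and 7901 against 7121 and 7187) and mt-Co3 (6426 and 6660 against 5637 and 5902) had the same order of pools. mt-Atp6, a subunit of ATP synthase, was at 8664 and 8862 against 7672 and 8010, while mt-Atp8 overlapped. The pools on each side were close to each other, yet the error of each difference, which draws on the 12 pools, was about as large as the difference. Over the 13 subunits the interval bounds reached from -0.735 to 0.455. Their median of -0.125 became -0.0152 with reads scaled to the total and 0 after quantile normalisation. The median of all genes was 0.0086, 0.11 and 0.0035 in the same order. The subunit median thus lay below that of all genes under the deposited scaling and with reads scaled to the total. After quantile normalisation it was near that of all genes. Of these subunits, mt-Co2, mt-Co3, mt-Atp6, mt-Nd3 and mt-Nd4l have under 2% of 25-base words of their own, and other annotated genes hold the rest.

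mt-Rnr1, the RNA of the small mitochondrial ribosome subunit, differed most clearly among the mtDNA genes. It was at 99.6 and 109 in the C57 pools and at 74.2 and 77.5 in the NZB pools, below all control pools (90.6 to 104) and far below the anti-Ly6G pools (206 to 260). The log2 difference was -0.46 (SE 0.11, limma unadjusted p = 0.00117, adjusted p = 0.176 over 12 pools and 0.0151 within the knockout). mt-Rnr1 was the only mtDNA-encoded gene of the 22 with an unadjusted p under 0.05 (4.55%, against 9.84% of all genes). Every word of mt-Rnr1 is its own. mt-Rnr2, the large ribosomal RNA, was at 213 and 231 against 184 and 200 (log2 -0.21, adjusted p = 0.727 by limma).

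**Figure D2:**
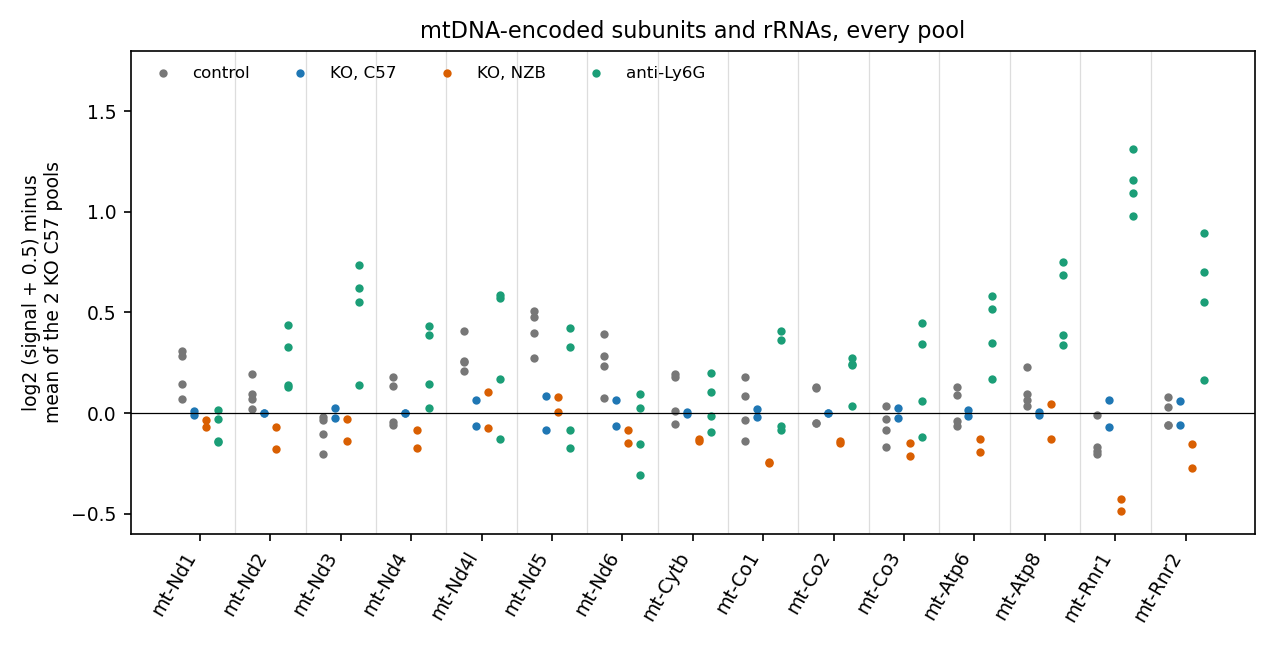
The 13 mtDNA-encoded subunits and 2 ribosomal RNAs in every pool, as log2(signal + 0.5) minus the mean of the 2 C57 knockout pools (y axis), with 1 point per pool and colours for control, knockout C57, knockout NZB and anti-Ly6G. The NZB pools lie at or under the C57 pools for most subunits, by 0.25 on average for mt-Co1, and mt-Rnr1 is set apart with a mean difference of -0.46.

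Nuclear genes for subunits of the 5 respiratory complexes followed the same slight shift. Of 75 measured, 48 (64.0%, against 26.9% of all genes) were lower in both NZB pools without overlap. In the other direction 1 was higher (1.33%, against 27.0%), and the median log2 difference was -0.145. Only 3 had an unadjusted p under 0.05 (4%, against 4.73% of all genes), all of them lower and all in complex I. Leaving out 1 pool at a time gave medians of -0.182 to -0.0831. With reads scaled to the total the median was -0.0355, against 0.11 for all genes, and 0 had a p under 0.05. Without overlap, 26 were then lower (34.7%, against 13.3% of all genes) and 10 higher (13.3%, against 46.7%). Ndufs8, an iron-sulphur subunit of complex I, was at 46.6 and 48.3 against 39.7 and 38.3 (log2 -0.28, SE 0.12, limma adjusted p = 0.449). Cox7c, a small subunit of cytochrome c oxidase, was at 157 and 153 against 133 and 136.

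Among 46 genes of mitochondrial ribosomal proteins the median was -0.0743, but 0.0338 with reads scaled to the total, so its sign depends on the scaling. Both values lay below the median of all genes (0.0086, and 0.11 with reads scaled to the total). Genes for mtDNA maintenance and transcription (21 measured, median -0.00725), for the mitochondrial unfolded protein response (14, median -0.00416) and for mitochondrial dynamics and mitophagy (15, median -0.0317) held 0 members with an unadjusted p under 0.05 by limma under the deposited scaling (against 9.84% of all genes). Their medians were 0.102, 0.105 and 0.0745 with reads scaled to the total, close to the shift of all genes.

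Lars2, the mitochondrial leucyl-tRNA synthetase that charges transfer RNA for translation inside the organelle, stood apart from these groups. It was at 120 and 136 in the C57 pools and at 65.5 and 64.4 in the NZB pools, while controls lay at 73.1 to 119 and anti-Ly6G pools at 63.9 to 86.8. The log2 difference was -0.97 (SE 0.20, limma adjusted p = 0.131 over 12 pools and 0.00137 within the knockout). Lars2 was chosen after its values were seen, as were Igfbp1 and Apoa4 below, which are in no gene list. The same holds for the members of gene lists named below in addition to the one of lowest p in each.

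Among genes that the fasting liver uses to burn fat, more were higher than lower in the NZB pools. PPARA, the nuclear receptor that senses fatty acids, drives many of them. Of 30 genes of beta oxidation and PPARA targets, 17 were higher without overlap (56.7%, against 27.0% of all genes) and 4 lower (13.3%, against 26.9%). An unadjusted p under 0.05 was reached upwards by 5 (16.7%, against 5.11% of all genes) and downwards by 1 (3.33%, against 4.73%). The median difference was 0.13. With reads scaled to the total, 12 had such a p upwards (40%, against 10.6% of all genes) and 0 downwards, with a median of 0.24. Quantile normalisation also gave 12 and 0, against 5.56% of all genes upwards. The direct repeat to which PPAR receptors bind was found on either strand in 1 of 23 promoter windows of these genes (4.35%), against 0.332% of all windows. That share rests on 1 window, and the windows of Pdk4, Ehhadh, Acot1 and Acot2, described below, did not hold the repeat. Pdk4, the kinase that blocks pyruvate dehydrogenase and so spares glucose, was at 59.0 and 61.0 in the C57 pools and at 136 and 130 in the NZB pools. Controls lay at 55.3 to 73.0 and anti-Ly6G pools at 53.5 to 92.6, so the NZB pools were above all other 10 pools. The log2 difference of Pdk4 was 1.14 (SE 0.19, limma adjusted p = 0.0785 over 12 pools and 0.000402 within the knockout).

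Acot1 and Acot2, neighbouring thioesterase genes that release fatty acids from coenzyme A, were likewise higher in both NZB pools. Acot1 was at 128 and 108 against 209 and 200 (log2 0.80, SE 0.16), and Acot2 at 37.3 and 35.6 against 70.2 and 61.7 (log2 0.84, SE 0.25). Parts of their sequence are shared, since 57.5% of the 25-base words of Acot2 are its own. Ehhadh, an enzyme of peroxisomal beta oxidation, was at 2128 and 1792 against 3523 and 3184 (log2 0.78, SE 0.20), above controls (2068 to 2311). None passed over 12 pools. Within the knockout, limma gave adjusted p of 0.00525 for Acot1, 0.00352 for Acot2 and 0.011 for Ehhadh.

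Other well-known PPARA targets did not show such a gap. Cpt1a, which admits fatty acids to the mitochondrion, was at 897 and 793 against 1005 and 957 (log2 0.22, limma adjusted p = 0.589). Cyp4a14 was at 9214 and 8194 against 9900 and 10165, below the control range of 10197 to 12279. Hadh was the member that was lower with an unadjusted p under 0.05, at 486 and 444 against 402 and 388.

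Fgf21 and Igfbp1, which encode secreted proteins, were also higher in both NZB pools than in either C57 pool. Fgf21, a hormone made by the fasting or stressed liver, was at 25 and 23.3 in the C57 pools and at 50.8 and 39.5 in the NZB pools, with controls at 15.9 to 22.2 (log2 0.88, SE 0.18, limma adjusted p = 0.136 over 12 pools and 0.00955 within the knockout). Igfbp1, a binding protein of insulin-like growth factors that insulin represses, was at 301 and 286 against 681 and 590 (log2 1.11, SE 0.35, adjusted p = 0.293 by limma and 0.0011 within the knockout). Anti-Ly6G pools were at 34.7 to 46.6 for Fgf21 and at 200 to 312 for Igfbp1. Fgf21 belongs to the integrated stress response list, whose 17 measured genes had a median of -0.0471 (0.059 with reads scaled to the total). An unadjusted p under 0.05 was reached by 2 of them, both higher (11.8%, against 5.11% of all genes).

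Lepr, the leptin receptor, had the widest ratio among the higher genes of lowest p, apart from the pseudogene Gm10171. It was at 44.4 and 25.3 in the C57 pools and at 152 and 128 in the NZB pools, while controls sat between, at 76.7 to 94.3. The C57 pools were below every control and the NZB pools above every control. The log2 difference was 2.04 (SE 0.37, limma adjusted p = 0.089 over 12 pools and 0.00491 within the knockout). The anti-Ly6G pools were at 55.0 to 145.

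Cidec, a protein of lipid droplets, was at 94.4 and 69.8 against 176 and 142 (log2 0.95, SE 0.19, limma adjusted p = 0.131), and Acsl4, which activates long-chain polyunsaturated fatty acids, at 62.1 and 49.3 against 100.4 and 94.3. Apoa4, an apolipoprotein that the liver makes in fasting and fatty states, was at 4045 and 3122 against 6641 and 6059, and at 12389 to 16985 in anti-Ly6G pools. Gm10680, annotated on the opposite strand of Apoa4, was the gene of lowest unadjusted p of all (1.57e-05, limma), at 302 and 247 against 526 and 549. Whether strand was used in counting is not given in the sources used here, so Gm10680 and Apoa4 cannot be told apart.

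In lipogenesis the members were mixed. Of 20 genes, 3 were higher (15%, against 5.11% of all genes) and 2 lower (10%, against 4.73%) at an unadjusted p under 0.05. The median was 0.0546 (0.163 with reads scaled to the total). Gpam, which starts triglyceride synthesis, was at 90.6 and 84.8 against 119 and 127 (log2 0.48, SE 0.12, limma adjusted p = 0.192). Thrsp, a lipogenic gene induced by thyroid hormone and feeding, went the other way, at 25 and 30.3 against 6.32 and 10.6 (log2 -1.69, SE 0.56, adjusted p = 0.32 by limma). Controls had 18.3 to 48.3 of Thrsp and anti-Ly6G pools 22.4 to 104.

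The remaining genes of lowest p that were higher in the NZB pools have varied roles. Hes1, a transcriptional repressor downstream of Notch, was at 8.12 and 7.39 against 17.4 and 13.8. Adamts1, a secreted protease, was at 9.04 and 9.81 against 17.8 and 17.7. Adam23 (7.30 and 7.07 against 13.1 and 20.3), Tbc1d8 (19.8 and 14.7 against 38.6 and 38.6) and Ehd3 (26.6 and 29.0 against 41.4 and 57.2) completed the 10. For Hes1, Adamts1, Adam23, Tbc1d8 and Ehd3 the limma adjusted p ran from 0.0785 to 0.131. Controls were at 17 to 20.2 for Adam23 and at 39.2 to 52.7 for Ehd3, so both C57 pools were below all controls for these genes. NZB pool 4 was above all controls for both, and NZB pool 3 below them for Adam23. For the 10 higher genes, both NZB pools were above all controls in 8, and both C57 pools were below them in 7. Across all 11791 genes these counts were 1769 and 1867. The 10 were chosen by the difference between these same pools, so their larger share follows in part from the choice.

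**Figure D3:**
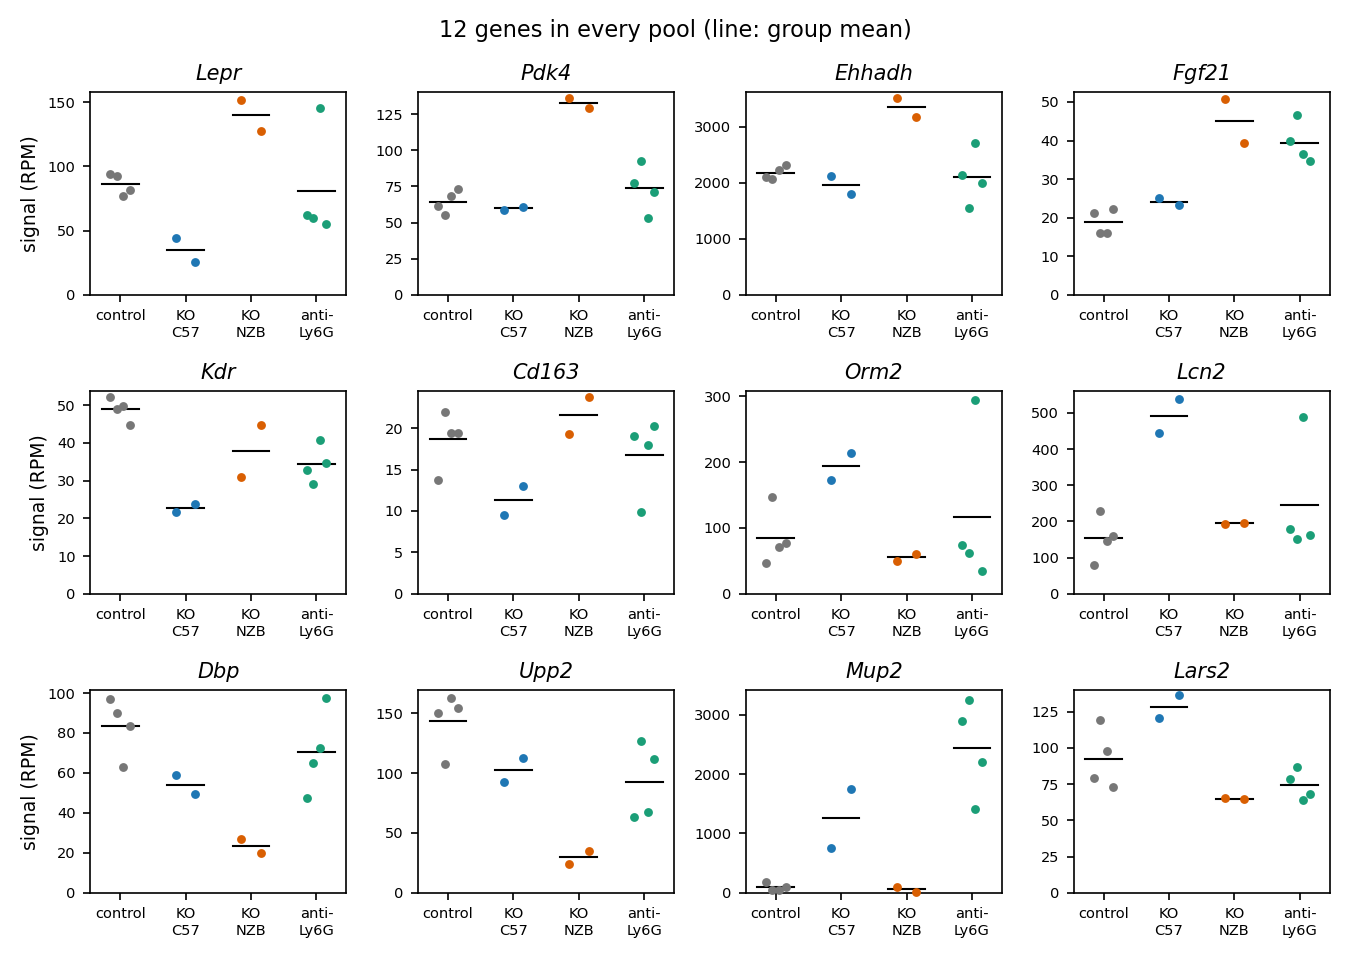
Signal in RPM (y axis, linear from 0) of 12 genes in every pool, with 1 point per pool and a line at each group mean, for control, knockout C57, knockout NZB and anti-Ly6G. Both NZB pools lie outside the control range for Pdk4, Ehhadh and Upp2, and both C57 pools for Cd163, Orm2, Lcn2 and Mup2. All 4 knockout pools lie outside it for Lepr, Fgf21, Dbp, Kdr and Lars2.

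Among genes of the circadian clock, more were lower than higher in the NZB pools. The clock is a loop in which CLOCK and BMAL1 (Arntl) switch on their own repressors and output factors such as DBP, TEF and HLF, whose levels swing over the day in liver. Of 20 clock genes, 12 were lower (60%, against 26.9% of all genes) and 5 higher (25%, against 27.0%) without overlap. An unadjusted p under 0.05 was reached by 6, all of them lower (30.0%, against 4.73% of all genes), and the median difference was -0.447 (-0.343 with reads scaled to the total). Dbp was at 58.9 and 49.4 in the C57 pools and at 27.1 and 19.9 in the NZB pools, with controls at 63.0 to 97.2 and anti-Ly6G pools at 47.5 to 97.6. Its log2 difference was -1.20 (SE 0.27, limma adjusted p = 0.171 over 12 pools and 0.00661 within the knockout).

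The other output factors had the same order. Tef was at 83.4 and 81.1 against 58.5 and 54.3, and Hlf at 39.3 and 42.3 against 28.8 and 27.3. Among the repressors, Per3 was at 8.07 and 7.91 against 4.54 and 3.35, and Bhlhe41 at 6.84 and 6.70 against 2.58 and 3.78. Per1, Nr1d1 and Cry1 overlapped, at 31.3 and 46.4 against 35.4 and 25.2 for Per1. Arntl was higher without overlap, at 10.3 and 13.7 against 15.4 and 16.8, but controls alone covered 4.49 to 17.6 (log2 0.42, limma adjusted p = 0.834).

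Both sides of the knockout were away from the controls for several of these genes. Both NZB pools were outside the control range in 15 of 20 clock genes (75%, against 31.7% of all genes) and both C57 pools in 10 (50%, against 30.2%). The labels do not give the time of day of tissue collection.

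Promoter windows of the clock genes were read to show the motifs of this loop. Windows run from 250 bases before to 50 bases after the annotated start (RefSeq, GRCm38.p6), and were available for 9045 genes of the table. The E-box CACGTG, to which CLOCK and BMAL1 bind, was found in 5 of 17 clock windows (29.4%), against 10.4% of all windows. The D-box TTATGTAA, read by DBP, TEF and HLF, was found in 1 of 17 (5.88%), against 0.509%. The windows of Dbp and Hlf held neither motif, and that of Bhlhe41 held an E-box. Both strands were searched, and CACGTG is its own reverse complement. The window of Tef (chr15:81802423-81802722, plus strand) holds an E-box beginning at -127, and that of Per3 (chr4:151044616-151044915, minus strand) holds D-boxes at -205 and -158, in capitals below.
Tef: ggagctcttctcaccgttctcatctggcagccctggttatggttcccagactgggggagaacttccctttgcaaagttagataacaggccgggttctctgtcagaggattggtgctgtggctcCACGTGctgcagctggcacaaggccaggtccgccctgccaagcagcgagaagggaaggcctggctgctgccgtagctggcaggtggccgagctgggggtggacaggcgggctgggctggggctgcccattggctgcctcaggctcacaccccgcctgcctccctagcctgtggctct
Per3: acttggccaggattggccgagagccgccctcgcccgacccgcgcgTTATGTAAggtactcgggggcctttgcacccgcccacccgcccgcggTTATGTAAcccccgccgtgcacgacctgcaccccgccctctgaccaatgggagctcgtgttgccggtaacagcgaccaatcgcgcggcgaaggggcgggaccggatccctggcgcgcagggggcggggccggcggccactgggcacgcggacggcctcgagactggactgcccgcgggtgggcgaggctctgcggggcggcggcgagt

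Upp2, a liver uridine phosphorylase, was among the lower genes of lowest p. It was at 92.4 and 113 in the C57 pools and at 23.9 and 35.3 in the NZB pools, below all controls (107 to 163) and all anti-Ly6G pools (63.5 to 126). The log2 difference was -1.80 (SE 0.31, limma adjusted p = 0.0785 over 12 pools and 0.00259 within the knockout). Inmt, a methyltransferase of small amines, was also low, at 67.3 and 70.6 against 23.9 and 29.8, with controls at 97.3 to 142. Car3, carbonic anhydrase 3 of hepatocytes, was at 446 and 460 against 201 and 216, and there the C57 pools stood above all controls (243 to 332). Inmt and Car3 were chosen after their values were seen.

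Most acute phase genes were lower in both NZB pools than in either C57 pool. These genes encode plasma proteins that hepatocytes make in answer to interleukins during inflammation. Of 23 measured, 20 were lower without overlap (87.0%, against 26.9% of all genes) and 0 higher, 8 had an unadjusted p under 0.05 (34.8%, against 4.73%), and the median difference was -0.443 (-0.333 with reads scaled to the total). Within the knockout, limma called 14 of them lower (60.9%, against 3.15%). Without 1 knockout pool at a time, between 2 and 6 of the 23 had an unadjusted p under 0.05. The count was 2 without C57 pool 2, 3 without either NZB pool and 6 without C57 pool 1. Both C57 pools lay above all controls in 11 of the 23 genes (1699 of all 11791), and both NZB pools below all controls in 7 (1973 of all 11791).

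Orm1, Orm2 and Orm3, which encode the plasma carrier orosomucoid, lie next to each other on chromosome 4. Orm2 was at 173 and 215 in the C57 pools and at 50.4 and 61.1 in the NZB pools, with controls at 46.7 to 146 and anti-Ly6G pools at 34.9 to 295. The log2 difference of Orm2 was -1.79 (SE 0.72, limma adjusted p = 0.42 over 12 pools and 0.00066 within the knockout). Orm3 was at 4.24 and 8.34 against 1.25 and 1.29 (log2 -1.87, SE 0.30, adjusted p = 0.0785 by limma), and Orm1 at 732 and 876 against 438 and 474. The genes share sequence, with 60.9% of 25-base words unique in Orm2, so reads can be split between them.

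Lcn2, an iron-binding protein of hepatocytes and neutrophils, was at 446 and 538 against 193 and 197, while controls were at 80.2 to 228 (log2 -1.33, SE 0.50, limma adjusted p = 0.383 over 12 pools and 0.00066 within the knockout). Saa4, a serum amyloid A gene with steady expression, was at 86.0 and 113 against 53.9 and 49.8. The inducible Saa1 was at 122 and 156 against 55.6 and 70.6, and its anti-Ly6G pools ran from 45.0 to 1331, a spread that enters the error over 12 pools. Serpina3n (630 and 727 against 430 and 436), Apcs (311 and 442 against 197 and 219) and Lbp (227 and 242 against 181 and 174) were lower as well. Hamp, the iron hormone hepcidin, overlapped, at 511 and 583 against 545 and 599.

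The letters TTGCNNAA, a core bound by C/EBP factors, were searched on both strands and found in 12 of 20 acute phase windows (60%), against 8.59% of all 9045 windows. Windows of 3 of the genes described above are given with the match in capitals. In Orm3 (chr4:63355908-63356207, plus strand) it begins at -121, in Orm2 (chr4:63362199-63362498, plus strand) at -120, and in Saa4 (chr7:46732554-46732853, minus strand) at -245 and -52.
Orm3: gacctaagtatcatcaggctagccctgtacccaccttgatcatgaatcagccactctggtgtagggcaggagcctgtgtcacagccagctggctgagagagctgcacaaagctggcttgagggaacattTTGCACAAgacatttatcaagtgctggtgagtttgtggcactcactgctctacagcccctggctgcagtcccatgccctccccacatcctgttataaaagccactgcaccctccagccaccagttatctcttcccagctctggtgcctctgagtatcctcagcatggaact
Orm2: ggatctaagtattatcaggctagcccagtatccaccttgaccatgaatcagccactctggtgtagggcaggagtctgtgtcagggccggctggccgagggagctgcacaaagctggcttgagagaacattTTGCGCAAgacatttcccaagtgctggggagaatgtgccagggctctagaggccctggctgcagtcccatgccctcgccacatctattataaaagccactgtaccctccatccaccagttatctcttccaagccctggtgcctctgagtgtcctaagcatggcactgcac
Saa4: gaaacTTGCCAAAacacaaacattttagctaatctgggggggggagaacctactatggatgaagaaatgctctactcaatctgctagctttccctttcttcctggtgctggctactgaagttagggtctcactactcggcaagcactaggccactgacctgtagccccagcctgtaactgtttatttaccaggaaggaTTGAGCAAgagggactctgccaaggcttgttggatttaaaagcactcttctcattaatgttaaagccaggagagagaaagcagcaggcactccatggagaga

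A match describes the letters and not binding. The STAT3 letters TTCCNGGAA were found in 2 of the 20 windows (10.0%), against 1.26% of all windows.

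Most interferon-induced genes were lower in both NZB pools by small amounts. Of 30, 24 were lower without overlap (80.0%, against 26.9% of all genes) and 0 higher, and 4 had an unadjusted p under 0.05 (13.3%, against 4.73%). The median was -0.302, or -0.199 with reads scaled to the total. Without overlap, 13 were then lower (43.3%, against 13.3% of all genes) and 2 higher (6.67%, against 46.7%). Psmb8, a subunit of the immunoproteasome, was at 29.9 and 31.0 against 23.6 and 20.8 (log2 -0.45, SE 0.13, limma adjusted p = 0.237). Without C57 pool 1, 1 of the 30 had a p under 0.05, and 2 without NZB pool 4. H2-D1 and H2-K1, major histocompatibility genes, had log2 differences of -0.33 each, H2-D1 at 1077 and 1034 against 861 and 815.

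Several of the other lower genes of lowest p encode secreted proteins. Ang and Rnase4, ribonuclease genes that share a promoter and first exons on chromosome 14, were at 182 and 196 against 125 and 125, and at 1192 and 1172 against 747 and 775. Their log2 differences were -0.59 (SE 0.10) and -0.63 (SE 0.11), each with a limma adjusted p of 0.0785. Because they share exons, they count as 1 observation. Proz, a cofactor in the control of clotting, was at 181 and 194 against 140 and 138. Eva1a, a regulator of autophagy, was at 81.7 and 86.8 against 53.1 and 55.8. BC025446 (60.1 and 63.7 against 35.6 and 39.2) and Raet1d, a ligand gene for the receptor NKG2D (34.9 and 55.5 against 17.9 and 19.3), were the others. Of the 10 lower genes of lowest p, both C57 pools were above all controls in 9, and both NZB pools were below all controls in 6. Across all 11791 genes these counts were 1699 and 1973. The 10 were chosen by the difference between these same pools, so their larger share follows in part from the choice. Ang and Rnase4 are counted separately in it, as are Mup1 and Mup2, which also share sequence.

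Major urinary protein genes had the widest difference in the lower direction, but they are a cluster of near-identical copies. Mup2 was at 750 and 1753 in the C57 pools and at 96.8 and 16.6 in the NZB pools (log2 -4.81, SE 0.75, limma adjusted p = 0.0785). Controls were at 45.4 to 177 and anti-Ly6G pools at 1411 to 3253. Mup1 was at 89.6 and 94.2 against 26.6 and 42.1. Mup20 had the opposite order, at 812 and 395 against 1240 and 1654 (log2 1.34, SE 0.53, adjusted p = 0.42 by limma). Only 20.8% of the 25-base words of Mup2, 26.6% of those of Mup1 and 31.3% of those of Mup20 are their own, so the division of reads among Mup genes is uncertain. The list of growth hormone and sex-biased genes, to which Mup1 and Mup20 belong, had a median of -0.0667 over 17 genes, and 0.0425 with reads scaled to the total.

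Drug-metabolising cytochrome P450 genes went in both directions. Of 24, 8 were lower (33.3%, against 4.73% of all genes) and 3 higher (12.5%, against 5.11%) at an unadjusted p under 0.05, with a median of -0.272 (-0.163 with reads scaled to the total). Without NZB pool 3, 2 were lower and 0 higher, and without either C57 pool 4 were lower. Cyp2a5, the coumarin hydroxylase, was at 362 and 293 against 157 and 139, below all controls (323 to 545; log2 -1.14, SE 0.40, limma adjusted p = 0.36 over 12 pools and 0.00259 within the knockout). The Cyp2c genes Cyp2c37, Cyp2c50 and Cyp2c54 had log2 differences of -0.75, -0.99 and -1.21. Cyp4a12a and Cyp2a4 were higher, by 1.29 and 1.34. Of the 25-base words of Cyp2a5, 39.5% are its own and 51.6% also occur in Cyp2a4, so reads can be split between this pair, and only 32.9% of those of Cyp4a12a are its own.

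Methionine and one-carbon metabolism is the pathway that the MCD diet starves. Of its 18 genes, 2 were higher (11.1%, against 5.11% of all genes) and 3 lower (16.7%, against 4.73%) at an unadjusted p under 0.05. The median was -0.123 (-0.0140 with reads scaled to the total). Leaving out 1 pool at a time gave medians of -0.196 to -0.0623. Csad, which makes taurine precursors from cysteine, was at 125 and 141 against 222 and 187 (log2 0.62, SE 0.16, limma adjusted p = 0.212). Gamt, the enzyme that uses S-adenosylmethionine to make creatine, was at 58.9 and 54.5 against 34.5 and 31.7 (log2 -0.77, SE 0.22, adjusted p = 0.237 by limma). At the same p, cholesterol synthesis had 2 of 24 genes higher (8.33%, against 5.11% of all genes) and 0 lower. The cell cycle had 1 of 22 higher (4.55%, against 5.11%). Their medians were 0.0895 and 0.166, or 0.19 and 0.265 with reads scaled to the total. Without NZB pool 3 the cholesterol median was -0.0858, with 0 genes higher. Ccnd1, the G1 cyclin, was at 78.8 and 64.3 against 116 and 110.

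**Figure D4:**
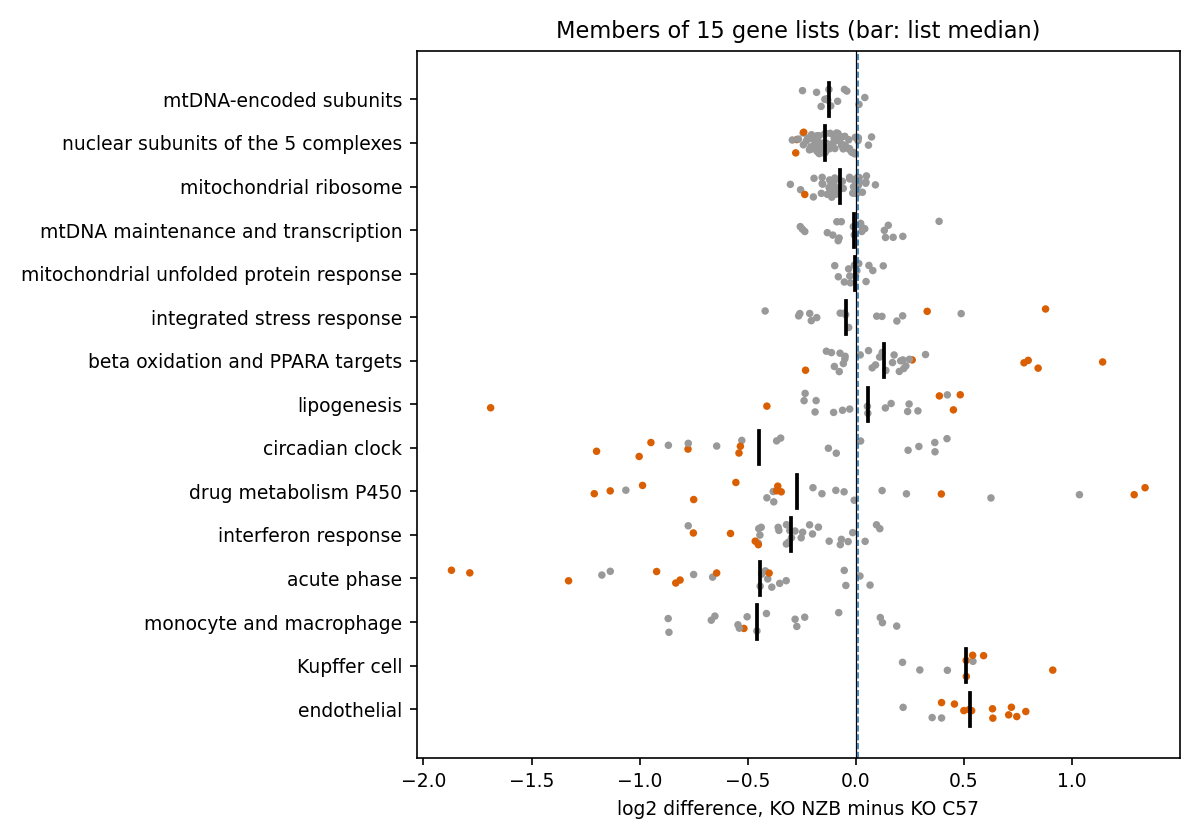
Log2 difference between the NZB and C57 knockout pools (x axis) for every measured member of 15 gene lists (rows), with a bar at each list median, orange points at an unadjusted p under 0.05 and a dashed line at the median of all genes. Endothelial and Kupffer cell lists have medians of 0.53 and 0.511, and the clock, acute phase and monocyte and macrophage lists -0.447, -0.443 and -0.457.

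Markers of other liver cells also differed between the sides, which is given here as measured. In a pool of whole liver, fewer cells of a type and less RNA per cell cannot be told apart. Endothelial genes were higher in the NZB pools in 12 of 14 without overlap (85.7%, against 27.0% of all genes), 11 had an unadjusted p under 0.05 (78.6%, against 5.11%), and the median was 0.53 (0.637 with reads scaled to the total). Their summed signal was 251 and 295 in the C57 pools, 336 and 461 in the NZB pools, 377 to 439 in control and 336 to 383 in anti-Ly6G pools. Both C57 pools were below all controls in 12 of the 14 genes (1867 of all 11791), and both NZB pools in 1 (1973 of all 11791). The 2 NZB pools themselves were far apart, and without NZB pool 4, or without C57 pool 1, 4 of the 14 had a p under 0.05.

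Kdr, the main receptor of vascular endothelial growth factor, was at 21.6 and 23.7 in the C57 pools, 31.0 and 44.7 in the NZB pools and 44.9 to 52.2 in control (log2 0.71, SE 0.17, limma adjusted p = 0.175 over 12 pools and 0.0382 within the knockout). Ptprb, a phosphatase of endothelial junctions, was at 27.4 and 33.8 against 43.6 and 64.0. Tek, the angiopoietin receptor, was at 5.16 and 3.90 against 6.62 and 9.33, and Pecam1, the adhesion molecule CD31, at 8.63 and 11.4 against 13.9 and 17.8. Stab2, a scavenger receptor of liver sinusoids, overlapped, at 35 and 41.3 against 41.2 and 47.7. Ehd3 and Adam23, described above, also had the C57 pools lowest of all 12.

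Marker genes of Kupffer cells, the resident macrophages of the liver, and of incoming monocytes and macrophages had medians of opposite sign. Of 9 Kupffer cell genes, 8 were higher without overlap (88.9%, against 27.0% of all genes) and 5 at an unadjusted p under 0.05 (55.6%, against 5.11%). The median was 0.511. Without 1 knockout pool at a time, 1 or 2 of the 9 had such a p, with 1 without C57 pool 1. Their summed signal was 475 and 509 in the C57 pools and 676 and 676 in the NZB pools, with controls at 476 to 705. C6, a complement component that these cells and hepatocytes express, was at 47.8 and 40.5 against 61.1 and 64.8 (log2 0.51, SE 0.15, limma adjusted p = 0.265). Cd163, the scavenger receptor for haemoglobin, was at 9.55 and 13 against 19.3 and 23.8, Clec4f at 72.5 and 87.3 against 118 and 109, and Vsig4 at 27.6 and 29.9 against 41.9 and 45.2.

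Among 17 monocyte and macrophage genes, 13 were lower without overlap (76.5%, against 26.9% of all genes) and 0 higher. The median was -0.457 (-0.351 with reads scaled to the total). Spp1 alone had an unadjusted p under 0.05 over 12 pools, which it lost without any 1 of the 4 knockout pools, while limma within the knockout called 7 lower (41.2%, against 3.15% of all genes). Spp1, osteopontin, was at 69.1 and 75.3 against 49.5 and 51.0 (log2 -0.52, SE 0.22, adjusted p = 0.439 by limma). Gpnmb, a gene of lipid-laden macrophages, was at 280 and 289 against 121 and 200, and Itgam (CD11b) at 14.2 and 15.8 against 8.90 and 9.57. Adgre1, which encodes F4/80, overlapped. The summed signal was 1308 and 1376 in the C57 pools, 892 and 1055 in the NZB pools and 619 to 1222 in control, so only the C57 pools exceeded the controls.

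Of 15 neutrophil genes 6 were in the table, and their sum (475 and 568 against 219 and 224) is mostly Lcn2. Hepatocyte markers, which define the labelled tissue, were abundant in all pools, and Alb took the largest part. Their sums were 133000 and 141490 in the C57 pools, 115450 and 115250 in the NZB pools and 124050 to 145270 in control. Without overlap, 8 of 14 were lower (57.1%, against 26.9% of all genes) and 3 higher (21.4%, against 27.0%). An unadjusted p under 0.05 by limma was reached by 2, both lower (14.3%, against 4.73%), and the median was -0.212 (-0.103 with reads scaled to the total). Blood genes were higher, with a sum of 303 and 297 against 535 and 367, and Hbb-bt, a beta globin, was at 15.6 and 16.7 against 38.1 and 25.6. T and NK cell markers were in the table for 1 of 12 genes and pancreas markers for 1 of 8. For the hepatocyte, monocyte and macrophage, Kupffer cell, endothelial and blood sums the exact permutation p was 0.333. The part of cell composition in the acute phase, interferon and other differences was not tested.

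The targeted gene was examined in each pool. Mapk12, which encodes p38γ, was at 1.63 and 1.79 in the C57 pools and at 2.70 and 3.06 in the NZB pools, while controls, in which it is intact, lay at 1.75 to 2.71 (log2 0.61, SE 0.21, limma adjusted p = 0.338). A deletion confined to myeloid cells leaves the gene intact in hepatocytes, so the level in whole liver does not check the genotype, and Mapk13 was not analysed here. Lyz2, the locus of the Cre, was at 234 and 246 against 143 and 163, with controls at 25.8 to 133. Lyz2 shares sequence with Lyz1, and 59.5% of its 25-base words are its own.

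Nuclear genes at which mouse strains are known to differ were read as a check on nuclear background. Of 14 measured, 0 were higher (against 5.11% of all genes) and 3 lower (21.4%, against 4.73%) at an unadjusted p under 0.05. All 3 of these are major histocompatibility genes (H2-D1, H2-K1 and H2-Q7). Nnt, a mitochondrial transhydrogenase that is mutated in the C57BL/6J substrain, was at 105 and 124 against 108 and 102. Hc, complement C5, was at 606 and 651 against 528 and 537. None of these levels separated the sides by an absence on one of them. Genes with an unadjusted p under 0.05 were spread over the chromosomes, from 7.29% of genes on chromosome 14 to 12.4% on chromosome 3 among the autosomes.

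The same label also differs between the anti-Ly6G and control pools, a comparison that shares no pool with this one but in which antibody and label cannot be told apart. There limma called 1848 genes higher (15.7%) and 1875 lower (15.9%). Across the 11791 genes, 50.7% had the same direction in both comparisons, and the differences had a Pearson r of 0.0556 and a Spearman rho of 0.0101 across genes, which are not independent replicates. Of the 1160 genes with an unadjusted p under 0.05 for the label within the knockout, 543 (46.8%) had the same direction. mt-Rnr1, lower with the NZB label within the knockout by 0.46, was the opposite, with 206 to 260 in anti-Ly6G and 90.6 to 104 in control pools. Fgf21 (34.7 to 46.6 in anti-Ly6G against 15.9 to 22.2 in control pools) and Apoa4 were higher on the NZB side of both comparisons, and Mup2 was lower on one and higher on the other.

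**Figure D5:**
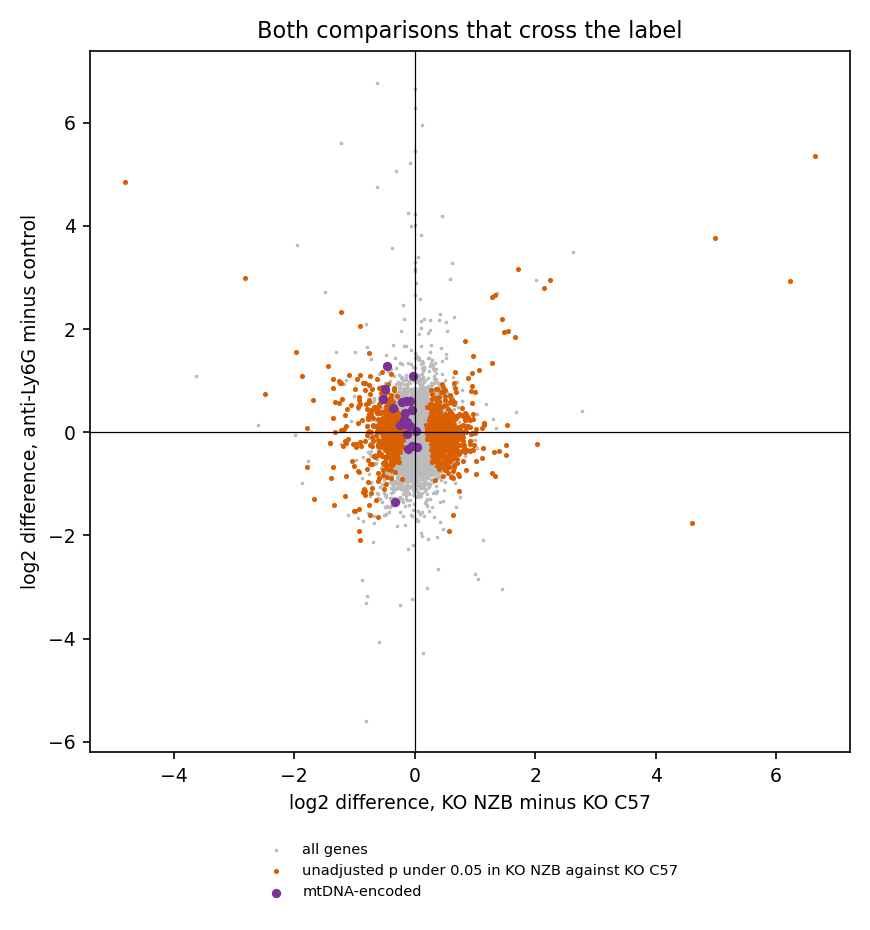
Log2 difference between NZB and C57 knockout pools (x axis) against log2 difference between anti-Ly6G and control pools (y axis) for 11791 genes, with orange points at an unadjusted p under 0.05 on the x axis and mtDNA-encoded genes in purple. The cloud has no slope (r 0.0556), and mtDNA-encoded genes lie at or left of 0.04 on the x axis with both signs on the y axis.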

How the data were processed

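RNA from 12 liver pools was sequenced on an Illumina Genome Analyzer. The authors deposited a normalised signal per gene (11791 genes, 12 columns, 0 columns of no mapped sample). Per the submitters' processing notes, the build was GRCm38 and the tools were edgeR, Bowtie2 2.0.6, RSEM 1.2.3 and cutadapt 1.2.1, with no roles named. Counting rules and annotation were not given in the sources used here. In every column 100% of values were whole multiples, within 0.01, of the value of 1 read, and these multiples were taken as reads for the count tests. A level of 3 reads is a signal of 0.125 to 0.242, and such floors cover counting error only.

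Groups came from the labels, with the knockout divided by mitochondria label. The test was limma-trend (limma 3.58.1, R 4.3.3) on log2(signal + 0.5) with all 12 pools in 4 groups, 8 residual degrees of freedom and Benjamini-Hochberg adjustment at 0.05. A mean of at least 1 in a group was asked for, which all 11791 genes reached. The fit was tested on simulated data. Alternatives were edgeR 4.0.16 and DESeq2 1.42.0 on the reads, the knockout pools alone, other pseudocounts, filters, scalings and weights, and leaving out each pool. Scaling to the table's total, the count tests on the knockout pools alone and leaving out control or anti-Ly6G pools were chosen after seeing the data. Summed markers and read shares were compared with an exact two-sided permutation test. If pools hold separate animals, p-values measure the spread between pools of 2 animals. The protocol names 12 males in each genotype, more than the 4 pools of 2 animals hold.

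Named genes were all mtDNA-encoded genes, Mapk12, Mapk13 (not analysed here) and Lyz2, the 10 genes of lowest unadjusted p in each direction without overlap of pools (none passed the adjusted threshold), the member of lowest p of each list, and the strain-differing list. Lars2, Igfbp1, Apoa4, Inmt, Car3 and further members of the lists were added after their values were seen. The comparison, the lists and the rule for named genes were chosen with earlier results of these data known. Symbols and coordinates are from GENCODE vM21 (GRCm38; 11672 of 11791 IDs found), and promoter windows are from RefSeq (GRCm38.p6). Sequence uniqueness is the percent of a gene's annotated 25-base words found in no other annotated gene.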

Additional observations from a re-analysis of the deposited data

Results flagged for a closer look

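Among 220 checks of 4 control or 4 anti-Ly6G pools, 17 (7.73%) had 1 pool far from the others, where chance gives about 1 in 20. The groups of 2 pools that this comparison rests on are too small for such a check, but these pools enter the shared estimate of the spread. Anti-Ly6G pool 3 was highest for Lepr (145.2 RPM), Adam23 (19.84), Lcn2 (488), Hc (662) and the neutrophil marker sum (498.5), and lowest for mt-Co2 (8086), the share of reads of Alb (7.211%) and that of the 10 most abundant genes (18.46%). Anti-Ly6G pool 1 was highest for H2-Q7 (101.8) and lowest for Atf3 (4.299). Lcn2 and the neutrophil marker sum are 1 signal, since Lcn2 makes up most of that sum. Control pool 1 was highest for Cox7c (173.8) and Ppargc1a (35.61). Control pool 4 was highest for Cyp2a5 (545.4), Ccnd1 (121) and Cyfip2 (6.078), and lowest for Ang (109.3) and Proz (161.6). For Lepr, the next anti-Ly6G pool was at 62.5, so the range of that group is set by 1 pool.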

How the results depend on the processing

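The count of called genes depends on which pools set the spread. It was 0 and 0 (higher and lower) over 12 pools, and stayed so with pseudocounts of 0.1 and 1, no filter, a mean of at least 5, quantile normalisation, edgeR and scaling to the total. It was 248 and 371 on the 4 knockout pools alone, 241 and 376 there by edgeR, 192 and 347 there by DESeq2, 15 and 41 with the 8 control and knockout pools, 68 and 62 by DESeq2 over 12 pools, and 326 and 319 with weights per pool. The cause was not tested. Leaving out 1 pool gave 0 to 4 higher and 0 to 2 lower, with 4 and 1 without anti-Ly6G pool 3, 2 and 2 without control pool 1, and 1 lower without NZB pool 3. At an unadjusted p under 0.05, leaving out 1 knockout pool gave 336 to 459 higher and 269 to 356 lower genes. A fit that leaves 1 knockout pool on a side assumes that this pool varies like the other groups. Anti-Ly6G against control had 1426 to 1948 higher and 1434 to 1939 lower calls when 1 pool was left out. The share of genes of the same direction in both comparisons was 47.7% with reads scaled to the total.

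No paired analysis was possible because the sides of the label carry different replicate numbers. Of 1173 values of named genes under settings that keep all pools, 946 kept direction and side of the threshold, 206 (44 genes) passed the threshold with the same direction, and 21 (13 genes) changed sign. Scaling to the total turned mt-Nd1 to 0.057, mt-Atp8 to 0.068, mt-Tm to 0.060, mt-Nd3 to 0.025, mt-Te to 0.024, H2-Ab1 to 0.063, H2-Aa to 0.093 and H2-Eb1 to 0.11. It also turned the list medians of mitochondrial ribosome to 0.034, NRF2 and antioxidant genes to 0.017, growth hormone and sex-biased genes to 0.043 and strain-differing genes to 0.024. The median of all genes was then 0.11. Quantile normalisation turned mt-Atp8 to 0.036, mt-Nd4 to 0.098, mt-Co2 to 0.060, mt-Nd3 to 0.054, H2-Q10 to 0.011, H2-Aa to 0.034 and H2-Eb1 to 0.019, and set mt-Cytb, mt-Co1 and the median of the mtDNA-encoded subunits to 0. H2-Eb1 was at 0.017 by edgeR, 0.011 by DESeq2, and 0.019 and 0.017 by them on the knockout pools alone. When 1 pool was left out, the log2 differences ran from -0.041 to 0.124 for mt-Nd5, -0.074 to 0.104 for mt-Nd4l, -0.131 to 0.048 for mt-Atp8, -0.075 to 0.013 for mt-Tm, -0.223 to 0.061 for mt-Te, -0.535 to 0.051 for Ccl5, -0.025 to 0.387 for Entpd4, -0.25 to 0.16 for H2-Ab1, -0.20 to 0.17 for H2-Aa and -0.22 to 0.22 for H2-Eb1. The inflammation list median ran from -0.34 to 0.032, the latter without NZB pool 4. Without 1 knockout pool at a time, medians crossed 0 also for cholesterol synthesis (-0.0858 to 0.24), the integrated stress response (-0.0668 to 0.0084), the TCA cycle (-0.0655 to 0.124), stellate cell genes (-0.275 to 0.144), immediate early genes (-0.0445 to 0.0723), the single T and NK cell gene (-0.535 to 0.0512), mitochondrial dynamics (-0.036 to 0.0105), the mitochondrial unfolded protein response (-0.0575 to 0.0376) and mtDNA maintenance (-0.0431 to 0.0388).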
